A study of Homo sapiens with 8 samples.

Results

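The last dose step of helveticoside in A549 cells, from 15 to 60 nM, was examined by setting the array of the 60 nM culture against the array of the 15 nM culture. The difference of the log2 normalized signals, 60 nM minus 15 nM, is called the step. It was taken for the genes whose probe was called well above background by the scanner software on both arrays, which were 12239 of the 19056 genes with a named probe. The question was which genes first moved at the top dose, which had already reached their level at the middle dose, and which went back. A549 cells are a long-established human line that came from a lung carcinoma, and helveticoside is a cardiac glycoside that was isolated in the study from the seed extract of D. sophia (EEDS). The helveticoside series held a vehicle control and 3.75, 15 and 60 nM, and the EEDS series, whose arrays are separate, a vehicle control and 1.25, 5 and 20 µg/mL. Each of the 8 single-colour Agilent arrays carried RNA pooled from 3 cultures of A549 cells without any other agent or genetic change, and each dose had 1 array. The exposure was 48 h in the sample labels and 24 h in the study's methods.

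Cardiac glycosides bind the sodium pump (Na+/K+-ATPase) at the cell surface and block it, so that sodium rises and potassium falls inside the cell, and calcium rises with sodium. Immediate early genes such as EGR1 and the FOS and JUN genes are switched on by kinase and calcium signals without new protein synthesis, and their mRNAs are short-lived. The factor ATF4 is translated when stress kinases phosphorylate eIF2α and raises genes of amino acid supply, and one of the later products of that response, PPP1R15A, directs the dephosphorylation of eIF2α.

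With 1 array per dose, no spread between cultures could be had and no test was possible; a gene is called higher or lower at a difference of at least 2-fold. The error that could be given is the scanner software's own estimate, which had a median of 0.21 for a step on the log2 scale and covers the measuring of 1 array pair only. The median SD of the step between probes of the same gene was 0.14. The probe spots had a median signal of 244 at 15 nM and 266 at 60 nM over a local background of 34 and 32.5, and 67.2% and 65.9% of the genes were well above background. The small number of arrays limits how precise any value can be. Spot positions in the scanner files place the 4 arrays of each series side by side in the order of dose, so that array position and dose cannot be told apart. The scale sets all arrays to the same distribution, and fewer cells of a type and less RNA per cell cannot be told apart in such bulk RNA.

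The labelled cell line was checked with 12 markers of A549 cells. Of these 11 were measured, among them KRT8, KRT18, KRT19, AKR1C1, AKR1C3, AKR1B10, ALDH1A1, NQO1, EPCAM and CDH1, while AKR1C2 had no named probe, with log2 levels at 15 nM from 8.17 (CDH1) to 17.9 (KRT18). Of the measured markers, CDH1 (E-cadherin) fell by 1.19 in the step and AKR1B10, an aldo-keto reductase, fell by 1.09, and the median step was -0.46. Of the markers of other cells, 3 of 6 of leukocytes (CD14, CD68 and PTPRC), 1 of 6 of fibroblasts (COL1A1) and 1 of 5 of endothelium (CDH5) were measured, and the T cell gene CD3E was not measured on both arrays. COL1A1 was 2.52-fold higher at 60 nM, from 7.27 to 8.60, while COL3A1, another fibroblast collagen, was well above background on the 15 nM array alone. The part of other cells in the step was not tested.

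Between 15 and 60 nM, 385 genes (3.15% of those measured) were at least 2-fold higher and 509 genes (4.16%) at least 2-fold lower. At least 4-fold changes were found for 18 genes (0.147%) upward and 37 genes (0.302%) downward. With the median signal as scanned the counts were 209 higher and 276 lower, and with the deposited table of processed values 171 and 218. The step was positive for 6397 genes and negative for 5834, the median step of all genes was 0.03, and the middle 50% of genes lay between -0.29 and 0.33. Just inside the 2-fold limit stood SH2D2A with a step of 1.0004 and SCARNA2 with -1.0003, and just outside it SF3B4 with 0.999 and HSD3B7 with -0.999. Of the 759 genes that were at least 2-fold above the vehicle control at 15 nM, 49.9% stayed within 1.5-fold of that level at 60 nM, 14.0% rose at least 2-fold further and 6.85% came back at least 2-fold. Of the 720 genes that were at least 2-fold below the vehicle control at 15 nM, 50.1% stayed, 18.3% fell further and 5.97% came back.

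**Figure D1:**
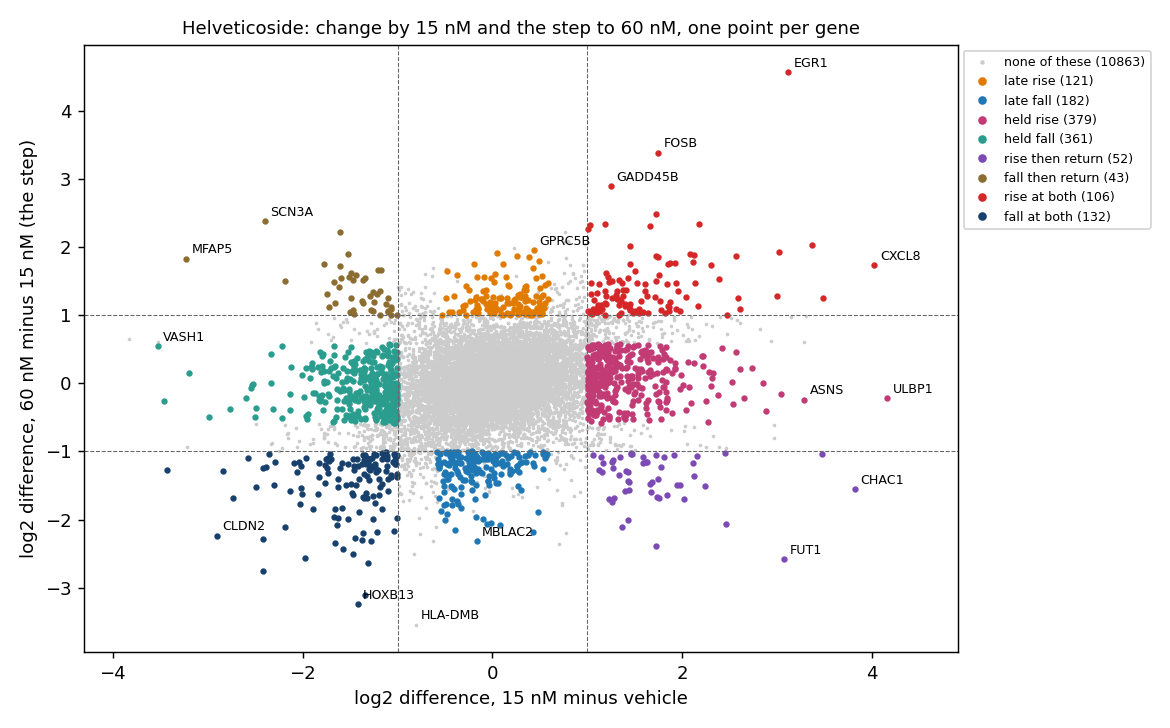
Each point is a gene; the horizontal axis is the log2 difference of 15 nM from the vehicle control and the vertical axis the log2 difference of 60 nM from 15 nM, with dashed lines at 2-fold and colors for the dose patterns. EGR1 stands alone at the top with a step of 4.57, and HLA-DMB at the bottom with -3.54.

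The dose patterns were defined from the 4 helveticoside arrays. A late gene was within 1.5-fold of the vehicle control at 3.75 and 15 nM and then moved at least 2-fold; there were 121 late rises (0.989% of the genes measured) and 182 late falls (1.49%). A held gene was at least 2-fold from the vehicle control at 15 nM and within 1.5-fold of that level at 60 nM; there were 379 held rises (3.10%) and 361 held falls (2.95%). A returning gene went at least 2-fold back, which 52 genes (0.425%) did after a rise and 43 genes (0.351%) after a fall. A further 106 genes (0.866%) rose at least 2-fold both by 15 nM and in the step, and 132 genes (1.08%) fell in both. The pattern sizes rest on the limits chosen, and the 15 nM array enters the change from the vehicle control and the step with opposite signs, so that an error of that array alone moves genes into the returning patterns. The remaining 88.8% of genes followed none of these patterns.

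**Figure D2:**
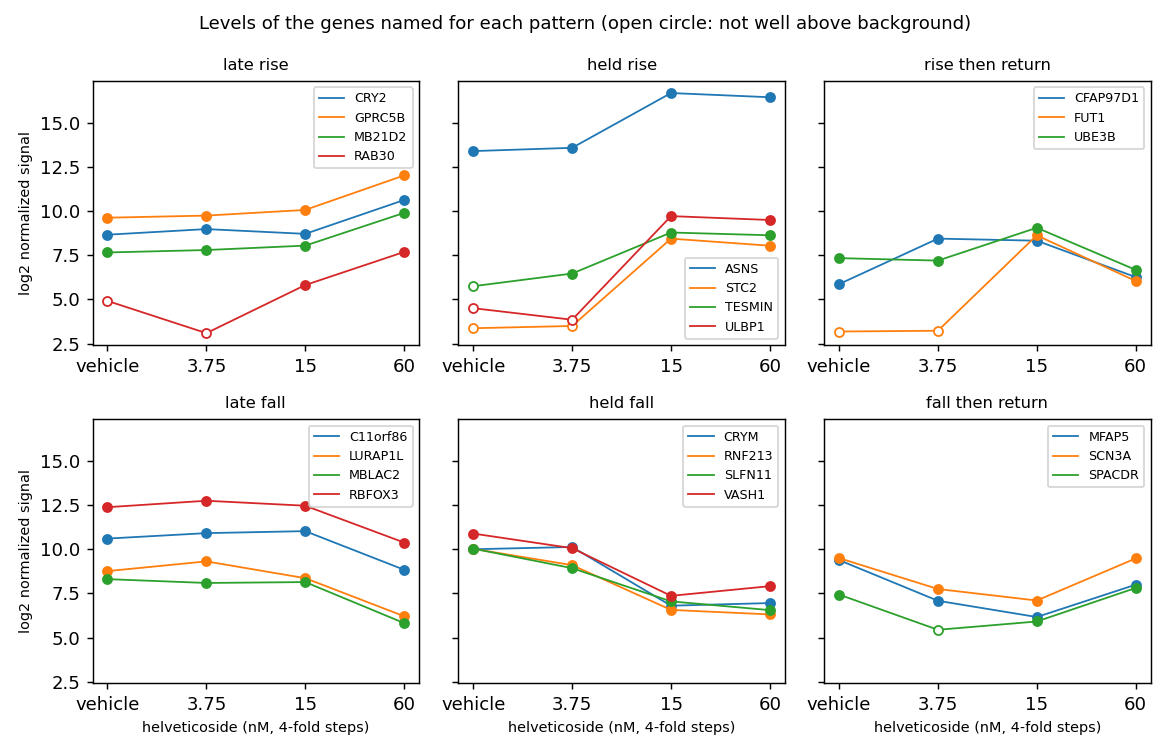
Each panel shows the log2 normalized signal on the 4 helveticoside arrays for 3 or 4 genes of a pattern, among those with its largest sizes, with an open circle where the gene was not well above background. GPRC5B and CRY2 leave their level only at 60 nM, ASNS is flat from 15 to 60 nM, and FUT1 is highest at 15 nM.

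The largest rise belonged to EGR1, a zinc finger transcription factor of the immediate early class. Its log2 level was 6.06 on the vehicle control, 8.10 at 3.75 nM, 9.18 at 15 nM and 13.74 at 60 nM. The step of 4.57 (scanner error 0.21), a 23.7-fold rise, was larger than the whole change from the vehicle control to 15 nM, which was 3.12. Because EGR1 had the largest step of all genes, its promoter window is shown, from the RefSeq promoters on GRCh38.p14 (chr5:138465229-138465528, plus strand). The capitals mark its 2 CArG boxes, the binding motif of serum response factor, which also drives other immediate early genes.

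EGR1: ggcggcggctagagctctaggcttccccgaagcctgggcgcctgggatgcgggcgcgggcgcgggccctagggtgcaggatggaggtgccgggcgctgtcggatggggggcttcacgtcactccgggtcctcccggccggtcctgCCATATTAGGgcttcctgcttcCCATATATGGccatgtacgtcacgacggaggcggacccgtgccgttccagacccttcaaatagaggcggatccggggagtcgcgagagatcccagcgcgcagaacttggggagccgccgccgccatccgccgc

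A CArG box was found in 1.06% of the 9835 promoters of measured genes that had a window, and in 2.38% of the 84 promoters of genes that rose at both steps, which is 2 promoters. The windows of the immediate early genes FOSB and FOS, which also rose, had none. Each window reaches only 250 bases before the start, and bases further away were not searched. SRF, the gene of serum response factor, rose by 1.15, from 7.04 at 15 nM to 8.19 at 60 nM. NAB2, a corepressor of EGR1, was flat up to 15 nM (11.49, 11.93 and 11.95) and reached 13.50 at 60 nM, a late rise of 1.54. NAB1, the other corepressor, had a step of 0.01. EGR2, not well above background at 15 nM, was at least 3.70-fold higher at 60 nM, and EGR3 and EGR4 were not measured on both arrays. Thus 2 of the 3 measured EGR and NAB genes were called, both upward.

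Among the FOS and JUN genes, whose proteins pair into the factor AP-1, 6 of 9 measured members rose at least 2-fold and none fell as much, with a median step of 1.20. FOSB had log2 levels of 6.26, 6.41, 8.01 and 11.40 at the rising doses, of which the 3.75 nM value was not well above background, and its step of 3.39 (scanner error 0.22) was the second largest rise of all genes. FOSL1 went from 9.99 to 11.89 and had climbed at every dose. FOS itself was at 8.38 on the vehicle control, higher at 3.75 nM (10.59) than at 15 nM (9.51), and at 10.96 at 60 nM, so that its step of 1.46 brought it just above the level of the lowest dose. JUN rose by 1.20 and JUNB by 1.14, while JUND had a step of 0.51 and BATF2 one of -0.62. FOSL2, which was within 1.5-fold of the vehicle control at 15 nM, rose by 1.22.

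The other immediate early genes were on the same side. Of 22 measured members, 21 had a positive step and 7 rose at least 2-fold; the median was 0.65 against 0.03 for all genes. The matricellular genes CCN1 and CCN2 rose by 2.31 and 1.64, CCN1 from 13.70 to 16.01. MAFF, a small MAF factor, went from 10.21 to 12.09. BTG2, an antiproliferative gene, rose by 1.58 and was within 2-fold of the vehicle control at 15 nM. NR4A1, a nuclear receptor without a known ligand, was at 7.08, 8.08, 7.16 and 8.45, so that like FOS it dipped at 15 nM. PTGS2 (cyclooxygenase 2) had a step of 0.40 and CREM one of 0.26 after rises of at least 2-fold by 15 nM. IER5L was the single member with a negative step, -0.82.

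Of the Krüppel-like factors, 3 of 14 rose at least 2-fold. KLF4 went from 7.99 to 9.46, KLF10 from 11.72 to 13.12, and KLF6 from 11.92 to 13.35 as a late rise after levels of 11.57 and 11.48 on the vehicle control and at 3.75 nM. The median of the list was 0.20. Of 9 MAP kinase phosphatases, which switch off the kinases upstream of these genes, DUSP1 rose by 1.05 and DUSP10 by 1.03, with a list median of 0.18, and DUSP2 was at least 2.11-fold higher.

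GADD45B and GADD45A, sensors of growth arrest and DNA damage, rose by 2.89 and 2.35. GADD45B was at 12.24, 12.81, 13.48 and 16.37 over the doses, and GADD45A at 9.91, 9.75, 11.09 and 13.44, both with a scanner error of 0.20. In both genes the step was larger than the whole change up to 15 nM. Of 24 genes of the p53 response, 4 rose at least 2-fold, none fell as much, 19 had a positive step and the median was 0.49. Those called were GADD45A, BTG2, TP53INP1 and AEN. TP53INP1 was a late rise, at 8.05, 7.53 and 8.06 before reaching 9.33. CDKN1A (p21) had a step of 0.83 after a rise of 1.69 by 15 nM and MDM2 one of 0.26. Over the same list the median difference from the vehicle control was 0.27 at 3.75 nM, 1.03 at 15 nM and 1.53 at 60 nM. None of 17 BCL2 family genes reached 2-fold in the step, whose median was 0.02, and the largest was 0.77 for the BH3-only gene HRK.

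Of 13 genes of NF-κB subunits and inhibitors, 3 rose at least 2-fold and none fell as much. TNFAIP3 (A20) was not well above background on the vehicle control or at 3.75 nM and went from 6.56 to 8.82, a step of 2.26 (scanner error 0.27). NFKBIE, an inhibitor of the IκB type, was at 10.51, 10.52, 11.46 and 13.20, and BIRC3, a ubiquitin ligase of the IAP family, went from 12.02 to 13.03. The subunits REL, NFKB1, RELB and RELA had steps of 0.86, 0.77, 0.71 and 0.61, NFKBIA had one of -0.13, and the list median was 0.71. Of 13 measured cytokines and chemokines, 4 rose at least 2-fold and 12 had a positive step, with a median of 0.92. The neutrophil chemokines CXCL8 and CXCL1 each rose by 1.74, CXCL8 from 9.58 to 11.31 after a rise of at least 4.02 from a vehicle control that was not well above background. IL11, a cytokine of the IL6 family, also rose by 1.74, from 14.74 to 16.49. CXCL2 was a late rise, at 8.85, 9.30, 9.37 and 10.95. The other probes of CXCL1 and CXCL2 had smaller steps of 0.79 and 0.78. CXCL5, already 1.49 above the vehicle control at 15 nM, had a step of -0.15.

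In TGF-β and BMP signaling, 4 of 22 genes rose at least 2-fold and the median was 0.43. NOG and GREM1, antagonists of BMP ligands, rose by 1.88 and 1.77. NOG was not well above background on the vehicle control or at 3.75 nM, and stood at 7.68 and 9.56 at 15 and 60 nM. In the list of plasminogen activators and matrix proteases 1 of 12 genes rose at least 2-fold and the median was 0.22. ID4 was at 8.22, 9.71, 9.28 and 10.37. Of 11 circadian clock genes, 4 rose and 1 fell at least 2-fold, with a median of 0.53. The 4 that rose were repressor genes, whereas the repressor genes NR1D2, BHLHE40 and NFIL3 had steps of 0.85, 0.53 and -0.16. NR1D1 (REV-ERBα) went from 7.83 to 9.87, a step of 2.04, with 7.79 at 3.75 nM. CRY2 was flat up to 15 nM (8.66, 8.98 and 8.71) and reached 10.62, CRY1 rose by 1.48 and PER1 by 1.59, whereas PER2 had a step of 0.30. The activator genes CLOCK and BMAL1 had steps of -0.07 and 0.10, and DBP, an output gene of the clock, fell by 1.30.

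The 4 largest late rises were GPRC5B, CRY2, RAB30 and MB21D2. GPRC5B, an orphan G protein-coupled receptor, was at 9.62, 9.74 and 10.06 up to 15 nM and at 12.01 at 60 nM, a step of 1.95 (scanner error 0.20). MB21D2 stood at 7.65, 7.79, 8.04 and 9.89. RAB30, a GTPase of the Golgi, was not well above background on the vehicle control or at 3.75 nM and went from 5.81 to 7.68, so that its flat part is set by the floor of those arrays; this held for 14 of the 121 late rises on the vehicle control. The late rises also held HMGCS1, the enzyme that forms HMG-CoA for cholesterol synthesis (9.90, 9.92, 9.88 and 11.43), CDK6 (a step of 1.19), ORC6 of the origin recognition complex (1.18), OCLN of the tight junction (1.17, and 1.15 with its other probe) and the arrestin-like ARRDC3 (1.15). Over the 121 genes the median difference from the vehicle control was -0.01 at 3.75 nM, 0.17 at 15 nM and 1.39 at 60 nM.

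At the middle dose many genes had reached the level they kept. The largest held rise was ULBP1, a ligand of the natural killer cell receptor NKG2D. It was not well above background on the vehicle control or at 3.75 nM and stood at 9.71 and 9.49 at 15 and 60 nM, at least 4.16 above the vehicle control at 15 nM. ASNS, the asparagine synthetase, was at 13.39, 13.58, 16.68 and 16.44, so that a rise of 3.29 was followed by a step of -0.24 (scanner error 0.20). STC2, a secreted glycoprotein, rose by at least 2.88 by 15 nM and had a step of -0.40, and TESMIN by at least 3.04 with a step of -0.16. DDIT3 (CHOP) had a step of 0.45 after 2.57. Over the 379 held rises the median difference from the vehicle control was 0.46 at 3.75 nM, 1.23 at 15 nM and 1.47 at 60 nM.

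The list of ATF4 and its target genes had members past 2-fold on both sides. Its 20 measured genes had a median of 2.09 above the vehicle control at 15 nM. At that dose 14 of them were at least 2-fold higher, beside 759 of all 12239 genes measured. Their median step was -0.32, with 16 negative steps. Past 2-fold, 2 genes rose and 4 fell. ATF3, which represses as well as activates, rose by 2.03, from 11.64 to 13.67, although its 3 other probes had steps from -0.57 to 1.74. PPP1R15A rose by 2.34, through 7.31, 8.09, 9.48 and 11.83. On the other side, CHAC1, which degrades glutathione, was at 8.44, 9.38, 12.26 and 10.71 (step -1.55, and -1.26 with its other probe). DDIT4, an inhibitor of the kinase complex mTORC1, fell by 1.79 to below its vehicle level, through 13.77, 14.18, 14.51 and 12.72. PSAT1 of serine synthesis fell by 1.06 and NUPR1 by 1.04, both staying more than 2-fold above the vehicle control. Short of 2-fold were PHGDH (-0.93), TRIB3 (-0.64), CEBPG (-0.42), VLDLR (-0.05) and ATF4 itself (-0.08).

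The promoters of ASNS, which held its level, and of CHAC1, which came back, are shown because both contain the composite C/EBP-ATF element (CARE), the site through which ATF4 acts with C/EBP proteins. The window of ASNS is chr7:97872359-97872658 on the minus strand and that of CHAC1 is chr15:40953221-40953520 on the plus strand of GRCh38.p14, from RefSeq. Capitals mark the motif TGATGNAA, searched on both strands; in CHAC1 it lies on the other strand.

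ASNS: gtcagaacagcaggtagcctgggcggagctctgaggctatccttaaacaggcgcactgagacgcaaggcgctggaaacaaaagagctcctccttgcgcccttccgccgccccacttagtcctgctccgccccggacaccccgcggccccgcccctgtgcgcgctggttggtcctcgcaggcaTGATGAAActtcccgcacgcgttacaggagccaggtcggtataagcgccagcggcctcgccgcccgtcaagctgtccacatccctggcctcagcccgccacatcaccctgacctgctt
CHAC1: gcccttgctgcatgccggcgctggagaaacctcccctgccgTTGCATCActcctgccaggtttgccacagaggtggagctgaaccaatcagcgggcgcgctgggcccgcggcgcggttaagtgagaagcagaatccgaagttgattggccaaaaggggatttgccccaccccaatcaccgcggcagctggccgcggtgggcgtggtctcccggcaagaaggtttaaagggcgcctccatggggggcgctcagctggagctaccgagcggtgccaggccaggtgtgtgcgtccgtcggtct

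This motif was found in 1.71% of the 9835 promoters of measured genes and in 3.67% of all 27305 promoters. It was in 17 of 303 promoters of held rises (5.61%), in 4 of 36 promoters of genes that rose and returned (11.1%), FUT1 and CHAC1 among them, and in 1 of 84 promoters of genes that rose at both steps (1.19%), which was ATF3. The late rises had it in 1 of 96 promoters and the held falls in 5 of 301 (1.66%). The AP-1 motif TGANTCA was in 4.79% of the promoters of measured genes and in 7.76% of all promoters. It was in 10.7% of those of genes that rose at both steps, 7.92% of held rises, 6.25% of late rises and 2.33% of held falls. The CRE motif TGACGTCA was in 3.25% of the promoters of measured genes and in 1.98% of all promoters. It was in 5.95% of those that rose at both steps, PPP1R15A, DUSP1 and MAFF included, in 3 of 96 late rises and in 0 of 144 late falls. The TATA box motif TATAAA was in 6.42% of the promoters of measured genes and in 11.95% of all promoters. It was in 17.9% of those that rose at both steps (15 of 84) and 15.6% of those that fell and returned (5 of 32). The share was 11.1% for those that rose and returned (4 of 36) and 9.90% for held rises. Late rises had it in 9 of 96 promoters, and held falls in 4.32%. For the other motifs searched, the E-box CACGTG was in 14.3% of the promoters of genes that rose at both steps against 10.00% of measured genes, the NFY motif CCAAT in 32.1% against 36.8%, the NF-κB motif in 7.14% against 6.69%, and the heat shock element in 0 of 84 against 0.386%. These matches describe letters in a window and no binding was measured.

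Among the falls, HLA-DMB, which helps load peptides on class II molecules, was lowest. It was at 11.70, 11.80 and 10.89 up to 15 nM and at 7.35 at 60 nM, a step of -3.54 (scanner error 0.22) and an 11.7-fold fall, whereas its partner HLA-DMA had a step of -0.17. HOXB13, a homeobox factor, fell by 3.25, through 10.69, 10.79, 9.28 and 6.03, and SCARA5, a scavenger receptor for ferritin, by 3.11, through 11.72, 11.81, 10.38 and 7.27. KAT14, an acetyltransferase of the ATAC complex, had already fallen at 3.75 nM and was at 11.52, 10.09, 9.10 and 6.34. FOXS1, a forkhead factor, fell by 2.63, ACOX2, a peroxisomal oxidase of bile acid precursors and branched fatty acids, by 2.56, NTHL1, a glycosylase of base excision repair, by 2.51, ANXA13 by 2.51 and NICN1 by 2.43. In these 9 genes the 60 nM array was the lowest of the 4. CLDN2, a claudin that forms pores for cations, fell by 2.24 after a fall of 2.90 by 15 nM.

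The largest late falls were MBLAC2, C11orf86, LURAP1L and RBFOX3. MBLAC2 was at 8.31, 8.09, 8.14 and 5.82, a step of -2.32 (scanner error 0.32). RBFOX3, a splicing factor best known from neurons, was at 12.38, 12.75, 12.47 and 10.38, and C11orf86 fell by 2.19, or by 2.28 with its other probe. LURAP1L went from 8.37 to 6.21. The late falls also held HOXC4 (-1.56), HOXA7 (-1.09) and NDUFB10 of respiratory complex I (-1.33). Over the 182 genes the median difference from the vehicle control was 0.07 at 3.75 nM, -0.20 at 15 nM and -1.42 at 60 nM. Of 23 measured HOX genes, 4 fell at least 2-fold (HOXB13, HOXC4, HOXA6 and HOXA7), none rose as much, and the median was -0.32. HOXD8 was at least 2.87-fold lower at 60 nM, where it was not well above background.

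The 4 largest held falls were VASH1, RNF213, CRYM and SLFN11. VASH1, a tubulin carboxypeptidase, was at 10.89, 10.06, 7.37 and 7.91, so that it fell by 3.52 by 15 nM and then had a step of 0.55. RNF213, a large ubiquitin ligase, had fallen by 3.46 at 15 nM and had a step of -0.26, and CRYM, a binding protein of thyroid hormone, had fallen by 3.20 and had a step of 0.15. SLFN11, which acts on stalled replication forks, was at 10.04, 8.93, 7.05 and 6.56. Of 22 measured heat shock genes 10 were at least 2-fold below the vehicle control at 15 nM, beside 720 of all 12239 genes measured. The list median was -0.93 at 15 nM and -0.54 at 60 nM, and the median step was 0.17. HSPA8, a constitutive HSP70, was at 14.68, 13.55, 11.46 and 10.52, a step of -0.94, and HSP90AA1 was at 16.80, 16.53, 15.08 and 15.26. DNAJB4 was the only one past 2-fold in the step, with a rise of 1.01 back to its vehicle level. Over the 361 held falls the median difference from the vehicle control was -0.40, -1.25 and -1.42 at the rising doses.

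Genes that came back at 60 nM were fewest, and they were divided by the 3.75 nM array, a division made after the values were seen. In 19 of the 52 genes that rose and returned, the level at 3.75 nM was within 1.5-fold of the vehicle control. FUT1, which makes the H antigen, was among them: it was well above background only at 15 nM (8.62) and 60 nM (6.04). So were enzymes and a transporter of amino acid metabolism, GPT2 (8.88, 8.70, 10.89 and 9.20), PCK2 (a step of -1.497), BCAT1 (-1.08), PSAT1 (-1.06) and the glycine transporter SLC6A9 (-1.03). UBE3B, a ubiquitin ligase, went from 9.05 to 6.67, but its other probe had a step of only -0.55. In the EEDS series, 9 of the 18 of these genes that were measured there were at least 2-fold higher at 5 µg/mL and 8 of those came back at least 2-fold at 20 µg/mL, GPT2 with 1.90 and then -2.77 and FUT1 with at least 4.15 and then -3.49. How many of all genes did so was not counted.

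In another 26 of the 52 genes the level was already at least 2-fold up at 3.75 nM, and the 3.75 and 15 nM arrays stood together against the vehicle control and 60 nM. CFAP97D1 was at 5.86, 8.44, 8.32 and 6.26, YPEL4 at 9.24, 11.16, 10.98 and 9.30, and EVPLL at 6.97, 8.96, 8.81 and 7.16. The median of the 26 genes was 1.53 above the vehicle control at 3.75 nM, 1.59 at 15 nM and 0.13 at 60 nM. Their median EEDS difference was -0.11 at 5 µg/mL, and 3 of 25 measured genes, DICER1-AS1 among them with 1.12 and then -1.94, rose and returned there.

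Of the 43 genes that fell and returned, 18 were already at least 2-fold down at 3.75 nM. SCN3A, a voltage-gated sodium channel, was at 9.50, 7.75, 7.10 and 9.48, so that a step of 2.38 (scanner error 0.24) brought it to within 0.02 of the vehicle control. GPR176 was at 8.22, 6.74, 6.61 and 8.34, and HAP1 at 7.53, 5.85, 5.75 and 7.50, with the 3.75 nM value of HAP1 not well above background. MFAP5, a microfibril protein, was at 9.39, 7.09, 6.17 and 7.997. On the EEDS vehicle control and at 5 and 20 µg/mL, SCN3A and GPR176 lay below the lower of their helveticoside levels. MFAP5, by contrast, was at 7.49 on the EEDS vehicle control and at 6.29 at 5 µg/mL. SCN3A was at 6.94, 6.50 and 6.63 on the EEDS vehicle control and at 5 and 20 µg/mL, and GPR176 at 6.02, 5.87 and 6.01. Over the 18 genes the median level was 7.72, 6.48, 6.13 and 7.86 on the helveticoside arrays and between 6.47 and 6.83 on the EEDS arrays, and none rose at least 2-fold from 5 to 20 µg/mL. At 5 µg/mL, 2 of the 18 were at least 2-fold below the EEDS vehicle control. The median was higher on the vehicle control of helveticoside than on that of EEDS (7.72 against 6.83). In another 17 of the 43 genes the level at 3.75 nM was within 1.5-fold of the vehicle control. MCM10, a replication factor, was among them, at 8.82, 8.43, 7.61 and 8.92. The median EEDS difference of the 17 genes was -0.50 at 5 µg/mL, and 2 of 16 measured genes fell and returned there. A further 7 rising genes, CHAC1 included, and 8 falling genes were in neither group at 3.75 nM. The part of array position or of 1 array in these patterns was not tested.

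**Figure D3:**
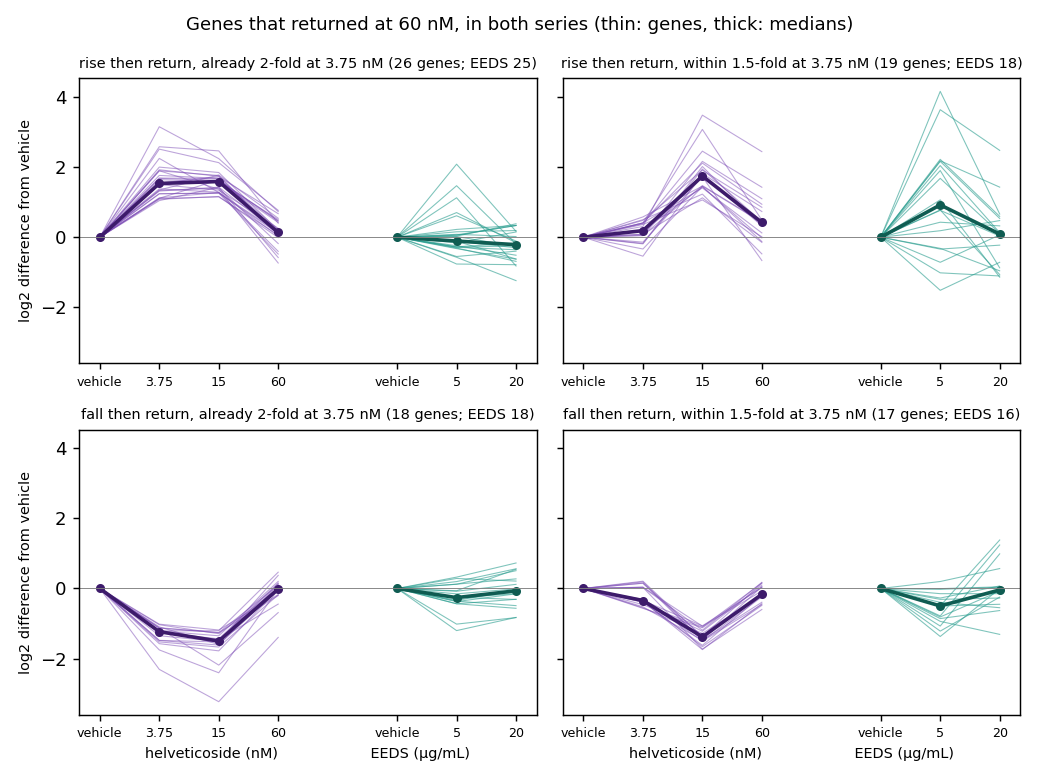
The log2 difference from the vehicle control of each series is drawn for the genes that returned at 60 nM, thin lines for genes and thick lines for medians, divided by their change at 3.75 nM. At 5 µg/mL the EEDS medians are -0.11 and -0.26 for the 26 rising and 18 falling genes that had already moved at 3.75 nM. They are 0.92 and -0.50 for the 19 rising and 17 falling genes within 1.5-fold at 3.75 nM.

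Beyond the genes measured on both arrays, 318 genes were well above background at 60 nM alone and 568 at 15 nM alone, and for these only a bound can be given. The bound is the distance from the brighter array down to the dimmer one, where the gene's signal is raised, if lower, to the lowest signal that passed as well above background there. By this bound 132 genes were at least 2-fold higher at 60 nM and 127 at least 2-fold lower. That lowest signal was log2 5.22 at 15 nM and 5.47 at 60 nM, so the counts upward and downward cannot be compared directly. SLC33A2 was at least 14.0-fold lower, CCR7 (a chemokine receptor) at least 8.21-fold lower, SOX3 at least 8.42-fold and MYO3A at least 8.01-fold. SLC33A2 and CCR7 were also well above background on the vehicle control, at 10.32 and 9.36, and lower at 20 than at 5 µg/mL EEDS by 2.29 and, as a bound, 2.83. SOX3 was not well above background on the vehicle control, and was at 5.15 and 5.10 on those EEDS arrays. Upward, the genes were higher by at least 11.8-fold for NMS, 7.35-fold for PAGE2, 6.61-fold for RASGRP1 and 6.46-fold for GSTTP2, and NMS, PAGE2 and GSTTP2 were not well above background on either of those EEDS arrays.

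Of 9 genes of the sodium pump, which the drug binds, and its FXYD regulators that were measured on both arrays none reached 2-fold. FXYD1, not well above background at 15 nM, was at least 3.23-fold higher at 60 nM. Its level was 6.43 on the vehicle control and 6.91 at 60 nM, and its EEDS step was 0.26. ATP1B1, a beta subunit, went from 16.18 to 16.69, ATP1B3 from 16.05 to 16.35 and FXYD5 from 12.14 to 11.86, and the list median was -0.04. Of 19 other genes of sodium, potassium, chloride and calcium transport that were measured on both arrays only ATP2A2, the calcium pump of the endoplasmic reticulum, was past 2-fold, with -1.09 and with 0.08 for its other probe, and the median was 0.03. SCNN1A, a subunit of the epithelial sodium channel, was not well above background at 15 nM and at least 2.52-fold higher at 60 nM. Its level at 60 nM (6.56) was below that on the vehicle control (7.12), and its EEDS step was 0.12.

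In metabolism, cholesterol synthesis and its SREBP control had 2 of 23 genes higher at least 2-fold, HMGCS1 among them, and a median of 0.004, with INSIG1 at -0.16 and SQLE at 0.11. Of 18 fatty acid oxidation genes none was past 2-fold, 15 had a negative step and the median was -0.22, with ACAA1 lowest at -0.86. Of 20 NRF2 and antioxidant targets 19 had a negative step and 2, PGD of the pentose phosphate pathway (-1.11) and AKR1B10 (-1.09), fell at least 2-fold, with a median of -0.32. In hypoxia and glycolysis 2 of 18 genes rose, ADM (adrenomedullin), from 14.56 to 16.63, and PFKFB4 (1.04), and the carbonic anhydrase CA12 fell by 1.15, with a median of 0.03. The 10 metallothioneins and zinc genes lay between -0.62 (SLC30A1) and 0.36, with a median of -0.27; probes of such near-identical genes can share signal. In the TXNIP and ARRDC list, ARRDC4 (1.51) and ARRDC3 rose, and the median of 8 genes was 0.56. Of 19 aminoacyl-tRNA synthetases, QARS1 fell by 1.67 and the median was -0.07. Of 82 genes of the respiratory chain and ATP synthase 1 fell at least 2-fold, NDUFB10, and the median was -0.05.

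Of 25 mitotic spindle and division genes 22 had a positive step, with a median of 0.38 and a largest step of 0.81 for CENPE, and none reached 2-fold. Of 28 DNA replication genes, whose median was -0.75 from the vehicle control at 15 nM, 22 had a positive step, 2 (MCM10 and ORC6) rose at least 2-fold and the median step was 0.25. In the list of G1 cyclins, CDK inhibitors and E2F factors, CDK6 was the one past 2-fold of 22 measured on both arrays, 19 had a positive step and the median was 0.52. CCNE2 (cyclin E2), not well above background at 15 nM, was at least 2.27-fold higher at 60 nM. The 61 histone genes had a median of 0.09, and the largest was 0.71 for H4C16. None of 82 cytosolic ribosomal protein genes (median -0.01, lowest RPL14 at -0.62), of 38 proteasome genes (0.08, with PSMB8 at -0.58), of 20 endoplasmic reticulum chaperones and sensors (0.14, with EDEM1 at -0.65) and of 13 Notch genes (0.05, with NOTCH3 at -0.96) reached 2-fold. Of 16 measured claudins and tight junction genes 4 rose and 2 fell, with a median of 0.10. CLDN22 (1.67), OCLN, CLDN15 (1.08) and CLDN7 (1.07) were higher and CLDN2 and CLDN23 (-1.02) lower. CLDN22 was at 6.79 on the vehicle control, 5.62 at 15 nM and 7.29 at 60 nM. CLDN15 was at 6.98, 6.19 and 7.27 on those arrays, and neither gene was well above background at 3.75 nM. CLDN6, not well above background at 15 nM, was at least 2.02-fold higher at 60 nM. Of 10 interferon response genes measured on both arrays only IRF1 was past 2-fold, with a rise of 1.58, and the median was -0.09. IRF1 was at 7.08, 6.77, 6.44 and 8.02 over the doses. OAS1 was at least 4.16-fold and IFIT2 at least 2.28-fold lower at 60 nM, where neither was well above background. The 295 zinc finger genes had a median of 0.15, with 8 higher and 8 lower. Of all genes measured, 3.15% were at least 2-fold higher and 4.16% at least 2-fold lower. Largest among the zinc finger genes were ZNF367 (1.99) and ZNF134 (1.58) upward and ZNF658 (-2.19) and ZNF30 (-1.65) downward. ZNF367 was at 5.95 at 15 nM and not well above background on the vehicle control. Among 123 antisense and LINC noncoding RNAs the median was -0.18, with 7 higher, among them LINC02817 (1.65), and 11 lower, among them DICER1-AS1 (-2.00), ARHGAP5-AS1 (-1.60, and -0.19 with its other probe) and LINC01003 (-1.54).

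**Figure D4:**
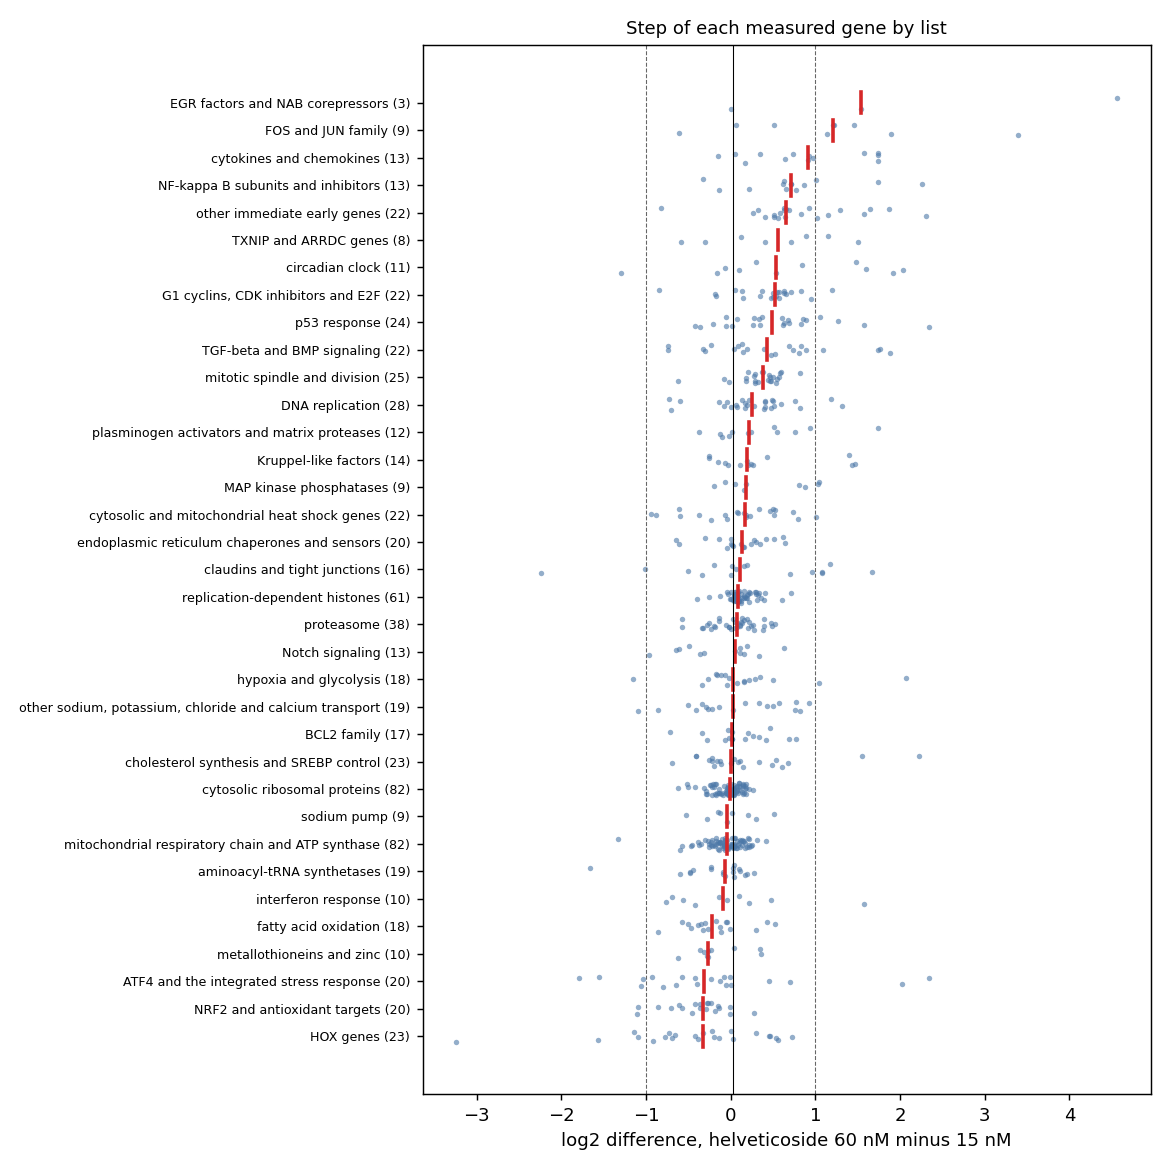
Each point is the step of a measured gene, 60 nM minus 15 nM on the log2 scale, in rows by gene list with the number of genes in brackets; red bars are list medians, dashed lines 2-fold, and the solid line the median of all genes (0.03). The EGR and NAB, FOS and JUN, and cytokine lists have the highest medians (1.54, 1.20 and 0.92), and the HOX, NRF2 and ATF4 lists the lowest (-0.32 each).

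The EEDS series gave the same genes on separate arrays, although its doses were not matched to those of helveticoside by potency. In the study, the median inhibitory concentration of helveticoside for growth lay between the lower and the upper dose of its step. That of EEDS lay below both doses of its step, so the steps of the agents cover different ranges of potency. Over the 12080 genes well above background at 5 and 20 µg/mL EEDS as well, the step from 5 to 20 µg/mL and that from 15 to 60 nM helveticoside correlated with Pearson's r at 0.806 and Spearman's rho at 0.805 across genes, which are not independent replicates. At this EEDS step 4.63% of these genes were at least 2-fold higher and 5.19% at least 2-fold lower, and 0.414% and 0.356% were past 4-fold. Of 378 genes that rose in the helveticoside step and were measured there, 358 were higher in the EEDS step, 216 at least 2-fold, and 1 was at least 2-fold lower. Of 500 that fell, 474 were lower, 308 at least 2-fold, and none was at least 2-fold higher. Late rises had a median EEDS step of 1.20, with 81 of 117 at least 2-fold higher, and late falls one of -1.20, with 126 of 180 at least 2-fold lower. Of the genes that came back at 60 nM, 16 of 50 after a rise and 6 of 42 after a fall moved at least 2-fold the same way in the EEDS step. Of 375 held rises, 299 were at least 2-fold up at 5 µg/mL EEDS, and their median EEDS step was -0.07. Of 359 held falls, 264 were at least 2-fold down, with a median step of -0.02. Beside them, 12 of 117 late rises were at least 2-fold up and 18 of 180 late falls at least 2-fold down at 5 µg/mL. The share of all genes past 2-fold at that dose was not counted.

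Single genes differed in size between the agents. EGR1 had an EEDS step of 6.09 beside 4.57, and FOS one of 4.53 beside 1.46. HLA-DMB had -4.11 beside -3.54, MBLAC2 -3.54 beside -2.32 and CHAC1 -3.78 beside -1.55. ASNS had -0.90 beside -0.24, and CLDN2 -0.34 beside -2.24 after a larger fall at 5 µg/mL EEDS (-3.98). Of the 113 genes named by rule, 4 had steps of opposite sign.

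**Figure D5:**
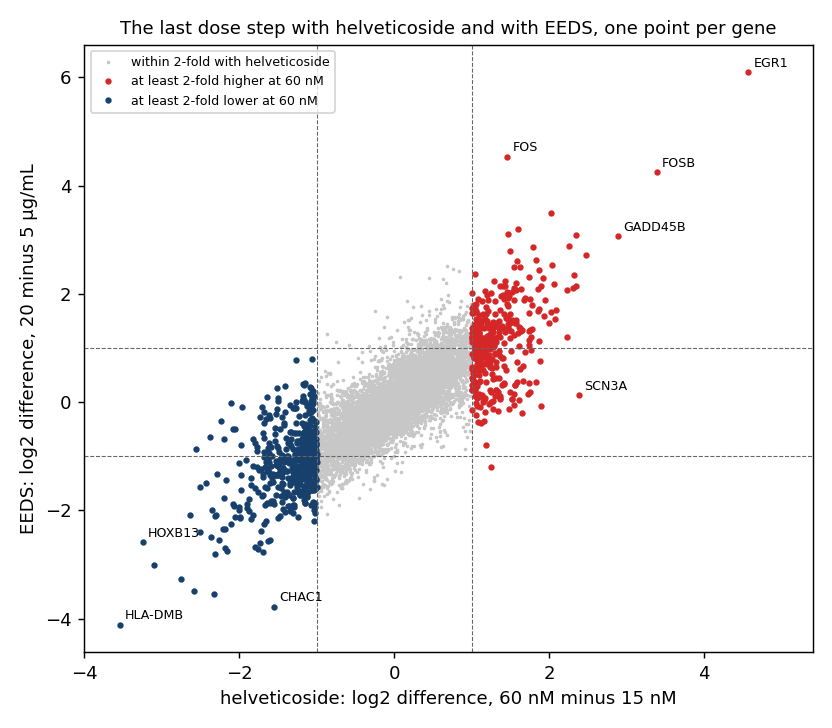
Each point is a gene; the horizontal axis is the log2 difference of helveticoside 60 nM from 15 nM and the vertical axis that of EEDS 20 µg/mL from 5 µg/mL, with dashed lines at 2-fold. EGR1, FOSB and GADD45B lie high on both axes and HLA-DMB and HOXB13 low on both, whereas SCN3A has an EEDS step of 0.13.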

How the data were processed

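The authors pooled the RNA of 3 cultures per condition, hybridized it to single-colour Agilent whole human genome arrays and read the spots with Agilent Feature Extraction. For each of 44495 spots per array they deposited intensity values: the median signal, the local background, the software's background-subtracted (processed) signal, and calls of outlier and well-above-background spots. A further intensity table of the authors, with 2427 blanks, holds by its values the scanned median less the background after quantile normalization of each series. Their methods kept spots over 1.4 times the local background. Samples were grouped by agent and dose from the labels, and 1 array per dose allowed no test.

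Control and outlier spots were dropped here, which removed 22 probes, and the mean processed signal of each probe was quantile-normalized across 8 arrays and converted to log2. By accession, 24812 of 34127 probes were assigned to 19056 genes of GRCh38.p14, used for names and promoters. Where a gene had several probes (4797 genes), the one with the highest mean log2 value was taken. A vehicle or 3.75 nM value not well above background was raised, if lower, to the lowest signal well above background of its array (log2 5.55 and 5.96). Patterns and bounds are as defined in the text. The members, the 37 gene lists and the 4 marker lists were chosen with earlier results of these data known, and lists share members. Genes were named by rule: the 10 largest rises and falls, the 4 largest of each pattern, up to 4 past 2-fold in each list (otherwise the largest), and the 4 largest bounds in each direction. Other members of lists and patterns named beside them were chosen after their values were seen, and the values of some named genes are not reported here. The pattern rules were run on simulated data, with changes larger than 2-fold planted only in probes well above background on the vehicle control. That run therefore says nothing about dim genes or changes near the limits. Promoter windows ran from 250 bases before to 50 after each start and were found for 9835 of the measured genes.

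Alternatives were the signal without background subtraction, normexp (offset 50), scaling to the 75th percentile, quantile normalization over the helveticoside arrays, the deposited values, other filters, other fold limits, another baseline and the median over probes. Software was Python 3.11.15 (numpy 2.4.6, pandas 2.3.3, scipy 1.17.1) and R 4.3.3 with limma 3.58.1.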

Additional observations from a re-analysis of the deposited data

How the results depend on the processing

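None of the named genes past 2-fold changed direction under the alternatives tried. Of 1000 alternative values of named genes 727 moved by less than the median SD between probes of a gene (0.14) and 273 by more, as did 303 and 30 of 333 list medians. Many of the 727 could not move. The other filters kept the probe and the normalization of a named gene, and the median over probes leaves a gene without another probe as it was. The 727 are therefore no measure of stability. With the median signal as scanned, 209 genes were higher and 276 lower, with 78 late rises, 112 late falls, 25 rises and 11 falls that returned; with normexp correction the numbers were 218, 285, 80, 114, 25 and 12. The deposited values gave 171 higher, 218 lower, 62 late rises, 90 late falls, 222 held rises, 237 held falls, and 22 rises and 6 falls that returned; of 95 named genes past 2-fold, 72 stayed past it there. With the limit of 1.4 times the background or no filter, which kept the same 19056 genes, there were 211 late rises, 586 held falls, and 101 and 67 returns after a rise and a fall, and the median step was 0.25, which is the difference of the floors of both arrays; the medians of the HOX (0.25), noncoding RNA (0.25), interferon (0.01) and sodium pump (0.23) lists changed sign there. The medians of the Notch, cholesterol, tRNA synthetase and other ion transport lists, all within 0.07 of 0, changed sign under other alternatives. A limit of 3-fold gave 65 higher, 107 lower, 10 late rises, 24 late falls, 85 held rises, 69 held falls, and 8 and 5 returns. A limit of no change of 1.25-fold gave 42 late rises, 74 late falls, 226 held rises and 231 held falls. With the mean of vehicle and 3.75 nM as the baseline there were 211 held rises, 217 held falls, and 25 and 22 returns. Scaling to the 75th percentile (315 higher, 543 lower), quantile normalization over the 4 helveticoside arrays (328 and 445), detection on all 4 arrays (299 and 500) and the median over probes (376 and 493) kept the counts higher and lower within 1.5 times. The cause of these shifts was not tested. No paired analysis was possible because each dose had 1 array, and no array could be left out for the same reason.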

Other observations

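Probes without a gene name were measured as well. Of 3625 such probes well above background on both arrays, 100 were at least 2-fold higher at 60 nM than at 15 nM and 143 at least 2-fold lower, and they were left out of the gene counts.

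Several probes of a gene gave a check within the arrays. Of 130 genes past 2-fold with more than 1 measured probe, 116 had the same sign with all their probes, 48 were past 2-fold with all of them and 14 had a probe of the opposite sign. Of the 113 genes named by rule, 17 had other probes, and a probe of ATF3 and that of ATP2A2 had the opposite sign.

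Most genes that were at least 2-fold up or down at 15 nM were not so at 3.75 nM. This was the case for all but 114 of 759 genes up (15.0%) and 90 of 720 genes down (12.5%).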
